A study of Mus musculus with 24 samples.

Results

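The 8 genes described here, Clcn1, Scn4a, Kcnj2, Kcnj11, Cacna1s, Cacng1, Ryr1 and Jph1, encode proteins that set the electrical excitability of the skeletal muscle fibre or couple it to calcium release. They were chosen by symbol from the 18669 genes of the count table. All 8 were listed, and all 8 passed the filter on low counts that left 13754 genes for testing. Of the 8, 7 encode channel subunits, while Jph1 encodes junctophilin 1, which is no channel and holds the membranes of the triad together.

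RNA from quadriceps femoris muscle of 24 mice was sequenced, with 2 mice in each of 12 groups. Wild type mice, R6/2 mice, which carry a transgene for exon 1 of mutant human HTT with an expanded CAG repeat and model Huntington's disease, and Hsf1 knockout (Hsf1-/-) mice, which lack the main heat shock transcription factor, were compared. All were labelled as on a CBA x C57BL/6 F1 background. In the heat experiment mice under isoflurane were held at 41.5 °C for 15 min (HS) or at 36.9 °C for 21 min (control). In the drug experiment they received the HSP90 inhibitor HSP990 at 12 mg/kg by oral gavage, or vehicle, and muscle was taken 4 h after either treatment. Wild type and R6/2 mice were 12 weeks old in both experiments, whereas Hsf1-/- mice were 10 weeks old in the heat experiment and 8 weeks old in the drug experiment, so knockout and age cannot be told apart.

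An action potential enters the fibre when voltage-gated sodium channels open and travels down the transverse tubules. There the dihydropyridine receptor senses the voltage and opens the ryanodine receptor of the sarcoplasmic reticulum, which releases the calcium that drives contraction. Chloride and inward-rectifier potassium channels hold the membrane near its resting potential, and inherited loss of the muscle chloride channel causes myotonia, a failure to relax after contraction.

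Libraries held 22450177 to 46599238 counts. In R6/2 libraries 14.7 to 21.9% of the counts fell on the 20 highest genes, against 32.7 to 35.9% in wild type and 33.0 to 40.05% in Hsf1-/- libraries. Hsf1 itself was at 21.1 to 29.0 CPM (counts as a rate of the scaled library size) in the 8 Hsf1-/- mice and at 52.9 to 68.5 CPM in the 8 wild type mice, with no overlap. The fibre identity was checked by its markers. The summed markers of muscle fibres stood at 214000 to 268500 CPM in wild type, 205000 to 275800 CPM in Hsf1-/- and 51670 to 97360 CPM in R6/2 mice. These 11 genes are called fast fibre markers below, after Myh4 and others. Acta1, Ckm, Des and Mb among them are not confined to fast fibres, so the sum is not specific to fast fibres. All 11 were detected in each genotype. Counts of 4 Y-linked genes summed to 0 to 4 per library in wild type and R6/2 mice of the heat experiment and to at least 3916 in every other library, so the 2 experiments also differed in this respect, and in the heat experiment Hsf1-/- mice differed from the other genotypes in it. Levels below are CPM after scaling by the trimmed mean of M-values (TMM), a scaling that sets the typical gene equal between libraries.

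Promoter sequences from RefSeq (GRCm38.p6, the stretch of 300 bases from 250 before to 50 after the transcription start) were available for 5 of the 8 genes. They are shown for Clcn1 (chr6:42286435-42286734, plus strand), Cacna1s (chr1:136052561-136052860, plus strand) and Ryr1 (chr7:29125102-29125401, minus strand) as genes called in R6/2 mice, and for Kcnj2 (chr11:111065914-111066213, plus strand) as the 1 that was not called there with TMM. Capitals mark each E-box (CANNTG, the motif read by myogenic factors among others) and the single match to the MEF2 consensus. Both motifs read the same on both strands.
Clcn1: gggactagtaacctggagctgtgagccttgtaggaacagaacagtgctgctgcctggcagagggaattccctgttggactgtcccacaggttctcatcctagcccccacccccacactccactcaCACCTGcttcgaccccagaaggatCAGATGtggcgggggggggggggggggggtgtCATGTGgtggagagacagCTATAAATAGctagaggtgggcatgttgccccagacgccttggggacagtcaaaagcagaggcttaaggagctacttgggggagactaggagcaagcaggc
Cacna1s: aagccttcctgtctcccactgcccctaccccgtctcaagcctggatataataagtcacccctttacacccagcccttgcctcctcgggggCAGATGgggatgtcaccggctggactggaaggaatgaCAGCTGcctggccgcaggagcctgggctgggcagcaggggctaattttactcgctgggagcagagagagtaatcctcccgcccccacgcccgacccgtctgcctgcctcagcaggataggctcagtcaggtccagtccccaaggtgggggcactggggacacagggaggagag
Ryr1: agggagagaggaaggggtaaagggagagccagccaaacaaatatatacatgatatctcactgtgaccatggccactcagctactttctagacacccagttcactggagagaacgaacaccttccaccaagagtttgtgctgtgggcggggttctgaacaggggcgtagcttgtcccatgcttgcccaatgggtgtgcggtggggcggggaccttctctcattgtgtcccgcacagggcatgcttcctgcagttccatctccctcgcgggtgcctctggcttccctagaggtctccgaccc
Kcnj2: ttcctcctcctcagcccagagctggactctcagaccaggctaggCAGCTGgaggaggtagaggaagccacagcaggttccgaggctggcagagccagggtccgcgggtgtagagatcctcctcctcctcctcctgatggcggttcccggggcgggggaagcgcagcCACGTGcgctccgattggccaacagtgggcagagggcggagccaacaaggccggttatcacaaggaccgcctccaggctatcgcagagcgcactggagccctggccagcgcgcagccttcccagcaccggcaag
The Clcn1 window held 3 E-boxes, 125, 101 and 69 bases upstream of the start, and the MEF2 match CTATAAATAG 51 bases upstream. Cacna1s and Kcnj2 held 2 E-boxes each, 1 of which was CAGCTG in both, 123 bases upstream in Cacna1s and 206 bases upstream in Kcnj2. The Ryr1 and Scn4a windows held 0. Of 32851 promoters of this length, 72.3% held CANNTG, 16.3% CAGCTG, which is one form of it, and 0.557% the MEF2 match. The heat shock element letters GAANNTTC and TTCNNGAA, each its own reverse complement, were in none of the 5 windows, against 7.86% and 8.52% of all promoters. These matches describe letters in a window and no binding was measured.

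Among wild type mice the levels per length of exon (median over 8 mice, CPM per kb) ran from 513 for Ryr1 through 363 for Cacng1, 260 for Cacna1s, 179 for Jph1, 146 for Scn4a, 101.5 for Kcnj11 and 55.0 for Clcn1 to 0.272 for Kcnj2. Kcnj2 was thus read from 19 to 94 counts per library and the other 7 genes from 5054 to 308457 counts. Its changes were measured with a standard error of 0.232 on the log2 scale between R6/2 and wild type mice, against 0.0554 to 0.102 for the others.

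**Figure D1:**
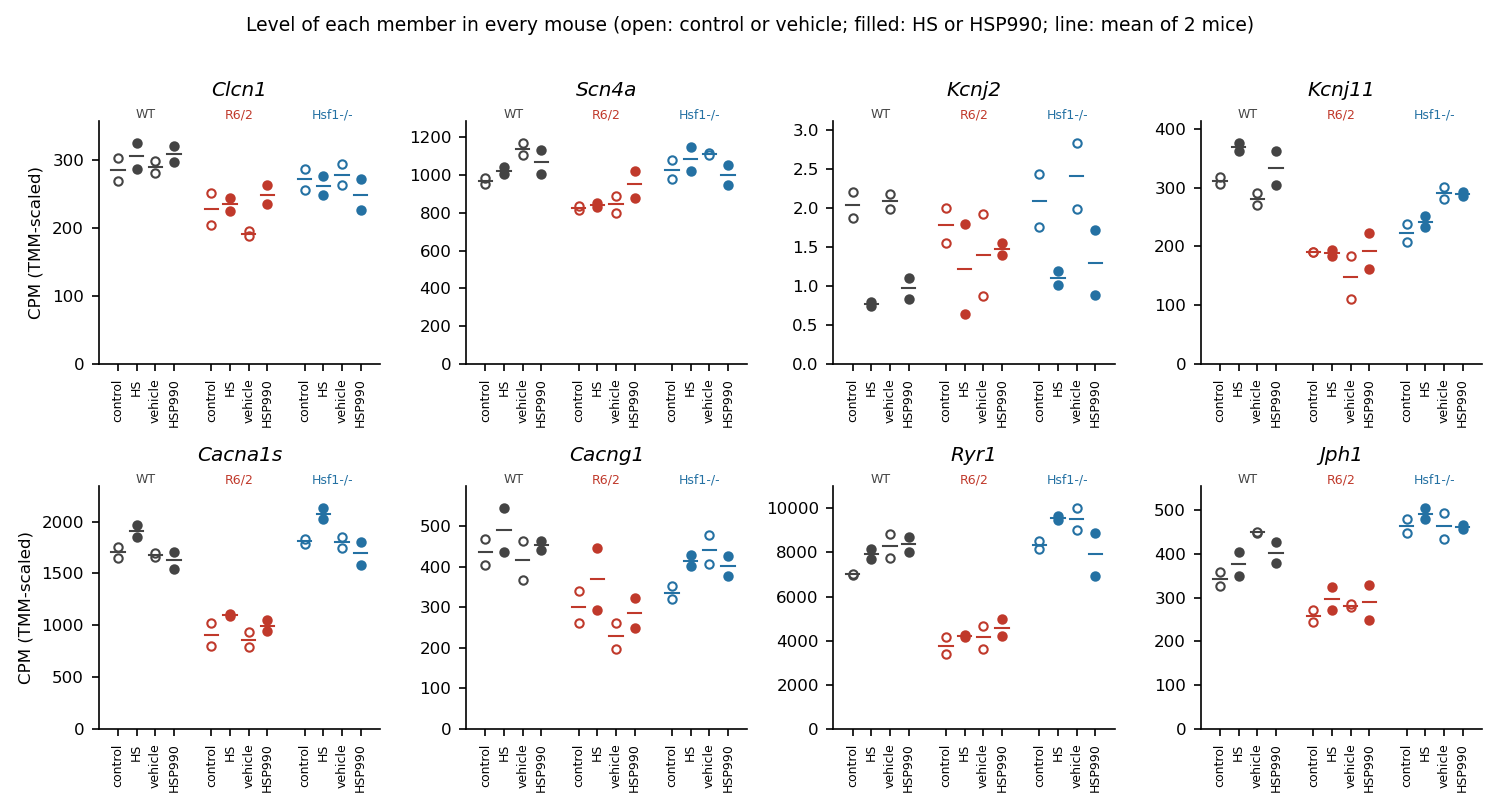
CPM after TMM scaling (y axis, from 0) of each of the 8 genes in each of 24 mice (points), by genotype and treatment (x axis), with the mean of the 2 mice of a group as a line. R6/2 mice lie below wild type mice for Clcn1, Kcnj11, Cacna1s and Ryr1 without overlap on this scale, though under library size scaling no gene of the 8 separated the genotypes in this way, and Kcnj2 lies under 3 CPM throughout.

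The first question was whether the excitability genes differed between R6/2 and wild type muscle. Averaged over the 4 treatments, 7 of the 8 were called lower in R6/2 mice with TMM, as were 19.8% of all tested genes (edgeR's quasi-likelihood test, Benjamini-Hochberg adjusted over all genes). With library size only, 3 of the 7 changed sign. Scaled to fast fibre markers, all 7 changed sign, where 12812 of all genes were called higher and 51 lower. The fitted levels of the 7 with TMM were 53.0 to 82.4% of wild type. The 8 genes had a median log2 fold change of -0.55 and all genes one of 0.03. All 8 R6/2 mice lay below all 8 wild type mice for 4 of the 8 genes, as was so for 4.90% of all genes.

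These directions are relative to the typical gene. With counts scaled by library size only, the median of all genes moved to 0.61, and 3 of the 8 genes were called lower (Kcnj11, Cacna1s and Ryr1) and 3 higher (Clcn1, Scn4a and Kcnj2). On that scale 0 of the 8 genes had all R6/2 mice below all wild type mice, as did 0.676% of all genes. Of the calls over all genes, 48.4% were lower with TMM and 5.19% with library size only. Less the median of all genes, the log2 fold changes with library size only were -0.44 for Clcn1, -0.31 for Scn4a, -0.88 for Kcnj11, -0.87 for Cacna1s, -0.65 for Cacng1, -0.95 for Ryr1, -0.50 for Jph1 and 0.10 for Kcnj2. A change of scaling moves all genes nearly together, so these distances from the median repeat those with TMM by construction. Scaled to the summed fast fibre markers, all 8 genes were higher in R6/2 mice, by 0.83 (Ryr1) to 1.89 (Kcnj2) on the log2 scale. The median of all genes was 1.78 with this scaling, and 12812 of all genes were called higher and 51 lower. The markers used as divisor had themselves a median log2 fold change of -1.69 with TMM. A higher value on this scale was thus not particular to the 8 genes. In bulk muscle, a smaller share of fibres and less RNA of a gene per fibre cannot be told apart.

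**Figure D2:**
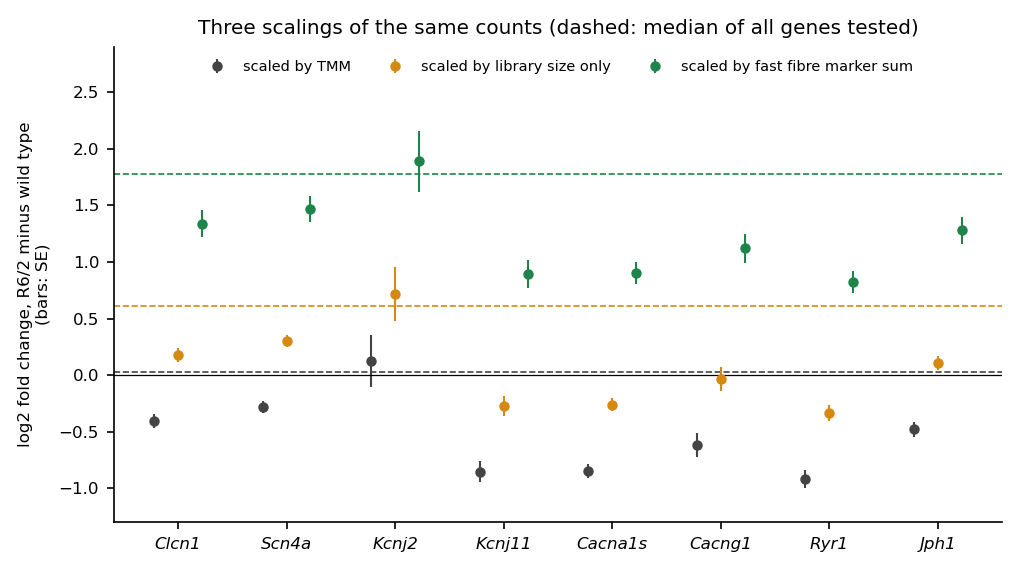
Log2 fold change of R6/2 against wild type mice, mean of 4 treatments (y axis, bars SE), for the 8 genes (x axis) under 3 scalings, with the median of all genes as a dashed line of the same colour. Clcn1, Scn4a and Jph1 lie below 0 with TMM and above 0 with library size only, and the 7 genes other than Kcnj2 lie below the median of all genes under each of the 3.

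Ryr1 and Cacna1s, the release channel and its voltage sensor, had, with Kcnj11, the lowest R6/2 levels relative to wild type, and these 3 were called lower under both scalings. Ryr1 (chr7:29788359-29910170 in mm9, minus strand) encodes the ryanodine receptor of skeletal muscle. Its CPM were 6980 and 7031 in wild type control, 7697 and 8169 in wild type HS, 7737 and 8838 in wild type vehicle, and 8032 and 8713 in wild type HSP990 mice. In R6/2 mice they were 3373 and 4145 in control, 4183 and 4246 in HS, 3642 and 4686 in vehicle, and 5000 and 4193 in HSP990 mice. Every R6/2 mouse was thus below every wild type mouse, in each treatment. This gave a log2 fold change of -0.92 (SE 0.08, adjusted p = 1.9e-07) with TMM, a level 53.0% of wild type, and of -0.34 (adjusted p = 0.00039) with library size only. A lincRNA on the other strand overlaps 299 exon bases of Ryr1, and whether reads were counted by strand is not given in the sources used here.

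Cacna1s (chr1:137949327-138016399, plus strand) encodes the pore and voltage sensor of the dihydropyridine receptor. Wild type mice stood at 1647 and 1757 CPM in control, 1962 and 1852 in HS, 1658 and 1693 in vehicle and 1542 and 1708 in HSP990 groups. The corresponding R6/2 values were 799.6 and 1018, 1105 and 1088, 789 and 932, and 1046 and 940.4. There was again no overlap between these genotypes. On the log2 scale the difference was -0.84 (SE 0.06, adjusted p = 4.2e-08) with TMM and -0.26 (adjusted p = 0.00052) with library size only.

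Cacng1 (chr11:107564532-107577836, minus strand), the gamma subunit of the same receptor, spread more. It ranged from 368 to 545 CPM (median 454) in wild type and from 198 to 447 CPM (median 278) in R6/2 mice. The R6/2 HS pair, at 447 and 295 CPM, reached into the wild type range. Its log2 fold change was -0.62 (SE 0.10, adjusted p = 0.00013) with TMM, and it was not called with library size only (-0.03, adjusted p = 0.78).

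Jph1 (chr1:16987545-17087879, minus strand) was at 326 and 360 CPM in wild type control, 404 and 349 in HS, 448 and 452 in vehicle, and 379 and 427 in HSP990 mice. In R6/2 mice the values were 272 and 245, 272 and 324, 278 and 285, and 330.3 and 250.2. The highest R6/2 mouse slightly exceeded the lowest wild type mouse. The log2 fold change was -0.48 (SE 0.07, adjusted p = 2.6e-05) with TMM, and it changed sign with library size only, to 0.11 (adjusted p = 0.1).

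Kcnj11 (chr7:53352533-53355607, minus strand) encodes Kir6.2, the pore of the ATP-sensitive potassium channel that links membrane potential to the energy state of the fibre. Wild type mice were at 305 and 319 CPM in control, 363 and 375 in HS, 291 and 271 in vehicle, and 304 and 363 in HSP990 groups. R6/2 mice were at 190.6 in both control mice, 193 and 183 in HS, 111 and 184 in vehicle, and 222 and 161 in HSP990 groups. The genotypes did not overlap. Its log2 fold change was -0.85 (SE 0.09, adjusted p = 1.8e-06) with TMM and -0.27 (adjusted p = 0.0089) with library size only. Of the sulfonylurea receptors that pair with this pore, Abcc9, at a mean of 499.5 CPM in wild type mice, changed by -0.36 with TMM and by 0.22 with library size only, both called. Abcc8, at a mean of 5.04 CPM, was called lower under both scalings (-1.15 and -0.57).

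Clcn1 (chr6:42236684-42265755, plus strand) encodes the muscle chloride channel. Its wild type CPM were 303 and 269 in control, 287 and 325 in HS, 299 and 281 in vehicle, and 320.5 and 297 in HSP990 mice. Its R6/2 CPM were 204 and 251 in control, 226 and 244 in HS, 195 and 188 in vehicle, and 264 and 235 in HSP990 mice. The genotypes did not overlap, though the highest R6/2 mouse (264) and the lowest wild type mouse (269) lay close. Its log2 fold change was -0.41 (SE 0.06, adjusted p = 9.2e-05) with TMM and 0.18 (adjusted p = 0.018) with library size only, so its direction depended on the scaling. Its exons share 445 bases with Fam131b on the other strand, which was at 1.43 CPM at most. Among RNA-binding proteins known to act on Clcn1 splicing, Mbnl1 and Mbnl2 were called lower, with log2 fold changes of -0.43 and -0.24, and Celf1 higher (0.26) with TMM. With library size only, Mbnl1 was not called (0.15) and Mbnl2 (0.35) and Celf1 (0.85) were called higher. Exon usage was not analysed here.

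Scn4a (chr11:106179906-106214602, minus strand), the voltage-gated sodium channel of skeletal muscle, had the smallest change of the 7 with TMM, though not with library size only. It ranged from 955 to 1168 CPM (median 1027) in wild type and from 798 to 1024 CPM (median 845) in R6/2 mice, which overlapped. On the log2 scale it differed by -0.28 (SE 0.06, adjusted p = 0.00066) with TMM and 0.30 (adjusted p = 6.1e-05) with library size only.

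Kcnj2 (chr11:110927478-110938135, plus strand), which encodes the inward rectifier Kir2.1, was not called. It was at 0.746 to 2.20 CPM (median 1.48) in wild type and at 0.632 to 2.00 CPM (median 1.55) in R6/2 mice. The fit gave a log2 fold change of 0.13 with a 95% interval of -0.36 to 0.62 (adjusted p = 0.7). With library size only it was called higher (0.72, adjusted p = 0.012). Kcnj12, which encodes the related Kir2.2, was far more abundant, at 128 CPM in wild type and 86.6 CPM in R6/2 mice (means of 8), and was called lower with TMM (-0.49, adjusted p = 0.0015) but not with library size only (0.09, adjusted p = 0.46).

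**Figure D3:**
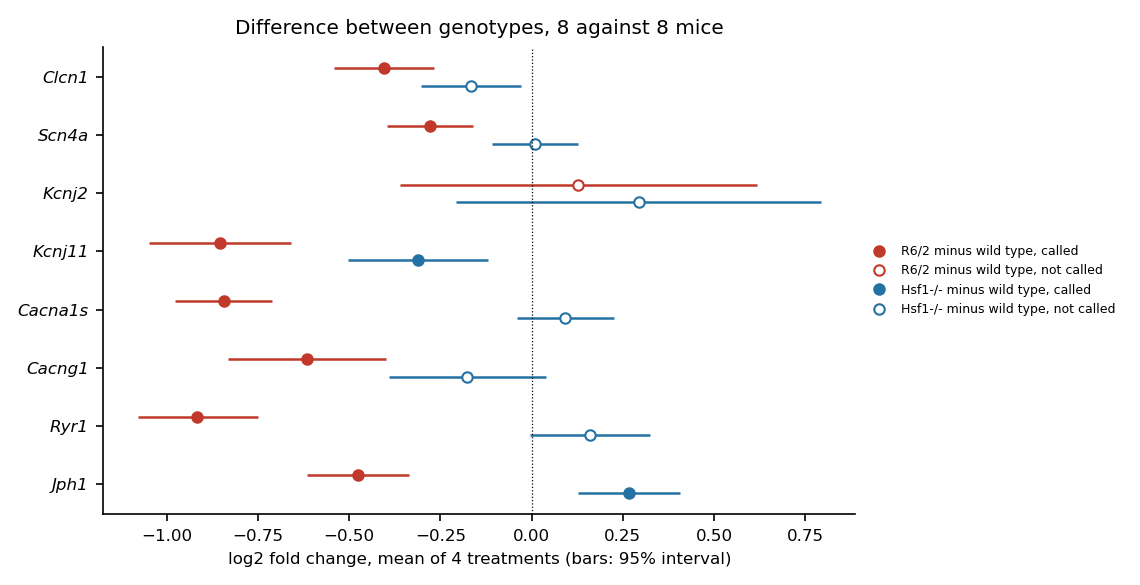
Log2 fold change against wild type mice, mean of 4 treatments with TMM scaling (x axis, bars 95% intervals), of the 8 genes (y axis) in R6/2 (red) and Hsf1-/- mice (blue), with called genes filled. The 7 called R6/2 values lie between -0.92 and -0.28, and the 2 called Hsf1-/- values lie at -0.31 (Kcnj11) and 0.27 (Jph1). The R6/2 values of Clcn1, Scn4a and Jph1 change sign with library size only. All 7 change sign when scaled to fast fibre markers, where 12812 of all genes were called higher and 51 lower.

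The control groups of the heat experiment and the vehicle groups of the drug experiment each gave the same comparison with 2 against 2 mice. In control mice 3 of the 8 genes were called lower in R6/2 (Kcnj11, Cacna1s and Ryr1, with log2 fold changes of -0.71, -0.91 and -0.90), as were 6.94% of all genes. Without the first R6/2 control mouse only Cacna1s was called (-0.74), Ryr1 being at -0.76 (adjusted p = 0.05), and Kcnj11 lost its call without any 1 of the 4 mice (adjusted p = 0.056 to 0.13). Without the second R6/2 control mouse Clcn1 was called as well (-0.49). With only these groups in the fit, Kcnj11 alone was called, and DESeq2 called Jph1 beside the 3. With library size only, Cacna1s and Ryr1 were called lower and Scn4a higher (0.31) in control mice. In vehicle mice 7 of the 8 were called lower, with log2 fold changes from -0.43 (Scn4a) to -0.99 (Ryr1), as were 10.5% of all genes, but with library size only 1 was (Cacna1s) and Clcn1 and Scn4a changed sign. Scn4a lost its call without the first R6/2 vehicle mouse (-0.35, adjusted p = 0.12) or the second wild type one (-0.39, adjusted p = 0.087). Cacng1 lost its call without the first R6/2 vehicle mouse (-0.67, adjusted p = 0.095) or the first wild type one (-0.68, adjusted p = 0.088). The difference between the 2 experiments was itself tested, after the vehicle values had been seen, and 0 of the 8 genes were called by edgeR, 0 had an unadjusted p below 0.05 and DESeq2 called 0, where 0% of all genes were called. Averaged over both treatments of an experiment, the 7 genes had log2 fold changes of -0.26 to -0.91 in the heat experiment and -0.30 to -0.93 in the drug experiment with TMM. Library size scaling was not applied to these averages, and the share of all genes called in them is not reported here.

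The genes around the 8 were described from lists of their pathways. Of all tested genes, 21.1% were called higher and 19.8% lower with TMM, and 69.1% higher and 3.78% lower with library size only, and the counts below stand beside these shares. Of 19 other genes of excitation-contraction coupling, 14 were called lower in R6/2 mice, 1 higher and 4 not, with a median log2 fold change of -0.57 with TMM, whereas with library size only 7 were called lower and 9 higher. Pvalb, the calcium buffer parvalbumin (-2.07), Casq1, the calcium store protein calsequestrin (-1.84), Sypl2 (-1.29), Jph2, the second junctophilin (-1.27), and Atp2a1, the calcium pump of the sarcoplasmic reticulum (-1.27), were called lower under both scalings. Sln, which encodes the pump inhibitor sarcolipin, was higher under both, at 1.51 ± 1.80 CPM in wild type and 23.0 ± 16.4 CPM in R6/2 mice (SD, n = 8 each), with a log2 fold change of 4.03 (adjusted p = 6.5e-05). The accessory subunits of the dihydropyridine receptor, Cacna2d1 (-0.38) and Cacnb1 (-0.57), were called lower with TMM, but with library size only Cacna2d1 was called higher (0.20) and Cacnb1 was not called (0.02). Stac3, which couples the receptor to release, was not called with TMM (-0.14, adjusted p = 0.089) and was called higher with library size only (0.44). The triad gene Trdn was not analysed here.

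Among 11 other sodium channel and pump genes, 5 were called lower and 1 higher with TMM (median -0.32), and 2 lower and 6 higher with library size only. The beta subunits Atp1b1 of the sodium pump (-1.12) and Scn4b of the sodium channel (-1.02) were called lower under both scalings. Fxyd1, a regulator of the pump, was called lower with TMM (-0.37) and higher with library size only (0.21). Of 9 other chloride channel and transporter genes, 4 were called higher, among them Clcn2 (0.52), Ano6 (0.38) and Clcn3 (0.31), and 1 lower, Ano5 (-0.43 with TMM, 0.16 and not called with library size only), with TMM, and 7 were called higher and 0 lower with library size only. Of 29 other potassium channel genes, 11 were called lower and 5 higher (median -0.06) with TMM, and 2 lower and 16 higher with library size only. Kcnq5 (-1.80) and Abcc8 (-1.15) were lower and Kcnj3 (1.34) higher under both, though Kcnj3 was at 0.362 CPM in wild type and 0.719 CPM in R6/2 mice. Kcna2, at a mean of 1.27 CPM in wild type mice, was called lower with TMM only (-0.98, and -0.40 with library size only). Kcnj8, the pore Kir6.1, was called lower with TMM (-0.30, adjusted p = 0.042) and higher with library size only (0.28, adjusted p = 0.031). Of 8 channel and receptor genes known from immature or denervated fibres, 3 were called higher with TMM and 6 with library size only. They were the acetylcholine receptor subunits Chrna1 (1.63, from 27.3 to 84.3 CPM) and Chrnb1 (0.76) and the potassium channel Kcnn3 (0.80), each higher under both scalings.

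**Figure D4:**
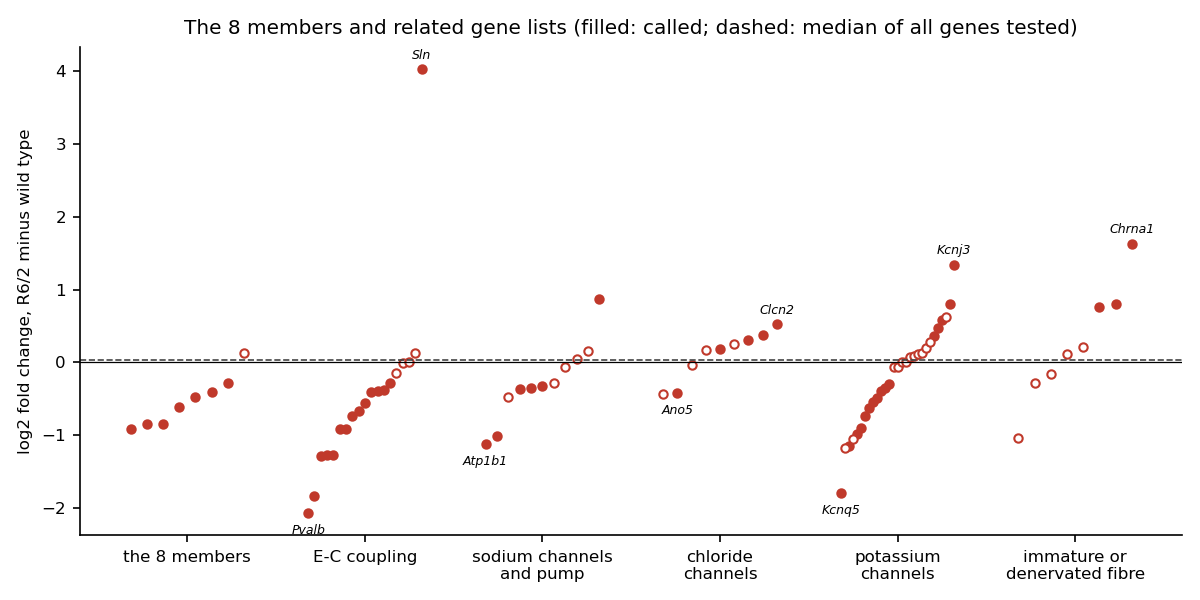
Log2 fold change of R6/2 against wild type mice with TMM, mean of 4 treatments (y axis), of the 8 genes and of other genes of related lists (x axis, 1 point a gene, in rising order), with called genes filled and the median of all genes (0.03) dashed. Of the coupling genes 14 of 19 and of the 8 genes 7 were called lower, against 7 of 19 and 3 of 8 with library size only, and Sln stands apart at 4.03.

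Markers of other cells were measured beside these differences. Of the fast fibre markers, 10 of 11 were called lower in R6/2 mice (median -1.69) with TMM, and desmin (Des) was not. All 4 adipocyte markers were called lower with TMM, and 2 with library size only, summing to 26.6 to 78.2 CPM in R6/2 and 29.0 to 355 CPM in wild type mice. Both satellite cell markers were called higher under both scalings, summing to 7.21 to 11.6 CPM in R6/2 and 4.18 to 7.53 CPM in wild type mice. Of the 3 red blood cell markers 2 were in the table, and both were called lower with TMM and 0 with library size only. Of 5 slow fibre markers 1 was called lower with TMM and 0 with library size only. Of the endothelial, pericyte, leukocyte, Schwann cell and cardiac markers 0 were called by edgeR in R6/2 mice, and of 4 fibroblast markers 1 was called higher. With library size only, 4 of 4 pericyte, 3 of 4 endothelial, 2 of 3 Schwann cell, 2 of 5 leukocyte and 3 of 4 fibroblast markers were called higher. The part of cell composition in the channel values was not tested.

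The knockout addressed whether these genes depend on Hsf1 without and with stress. Averaged over 4 treatments, 2 of the 8 genes were called in Hsf1-/- against wild type mice, as were 7.61% of all genes. Kcnj11 was lower, with 208 and 239 CPM in control, 232 and 252 in HS, 281 and 301 in vehicle, and 285 and 293 in HSP990 mice, and a log2 fold change of -0.31 (SE 0.09, adjusted p = 0.046). Jph1 was higher, with 481 and 449, 480 (479.6) and 504, 495 and 434, and 466 and 458 CPM in the same order and a log2 fold change of 0.27 (SE 0.07, adjusted p = 0.022). For both genes the control, HS and HSP990 pairs lay apart from the wild type pairs of the same treatment, whereas the vehicle pairs overlapped. Spread alone can separate 2 mice from 2, and the share of all genes with such separation is not reported here.

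Both calls were close to the threshold. Leaving out 1 of the 16 mice at a time removed that of Kcnj11 in 15 cases, all but that of the first wild type HSP990 mouse (log2 fold change -0.34 to -0.28, adjusted p = 0.049 to 0.11 over all 16). The call of Jph1 was lost in 6, namely without the first mouse of the Hsf1-/- control, Hsf1-/- vehicle, wild type control, wild type vehicle or wild type HSP990 group or the second wild type HS mouse (0.24 to 0.29, adjusted p = 0.026 to 0.063 over all 16). Within the heat experiment the log2 fold changes were -0.55 for Kcnj11 (adjusted p = 0.015) and 0.41 for Jph1 (0.013), and within the drug experiment -0.08 (0.85) and 0.12 (0.6). The difference between the experiments was not tested, and in the heat experiment the genotypes differed in Y-linked counts as well as in age. In control mice alone 0 of the 8 genes were called by edgeR (1.93% of all genes were) and 2 had an unadjusted p below 0.05. DESeq2 called 1 of the 8 there, Jph1, where it called 398 of all genes higher and 335 lower. In vehicle mice 0 were called (0.0872% of all genes were), 0 had an unadjusted p below 0.05 and DESeq2 called 0.

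The other 6 genes were not called in Hsf1-/- mice. Ryr1 (0.16, 95% interval -0.01 to 0.32), Cacna1s (0.09, -0.04 to 0.23), Scn4a (0.01, -0.11 to 0.13), Clcn1 (-0.17, -0.30 to -0.03) and Cacng1 (-0.18, -0.39 to 0.04) had intervals whose lower ends lay above the R6/2 values of the same genes with TMM, though the difference between the 2 genotypes was not tested. The interval of Kcnj2 ran from -0.21 to 0.79 and contained its R6/2 value of 0.13. The unadjusted interval of Clcn1 did not hold 0, but its adjusted p was 0.13. Mbnl1 was higher in Hsf1-/- mice (0.28, adjusted p = 0.032), and Fxyd1, the pump regulator, was lower (-0.39, adjusted p = 0.0019). The 2 genes called in Hsf1-/- mice moved in the R6/2 comparison by -0.85 (Kcnj11) and -0.48 (Jph1). Both comparisons share the wild type mice.

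Whether a stress 4 h earlier changed these transcripts was asked within each genotype. After HS 0 of the 8 genes were called by edgeR in wild type (2.06% of all genes were called), R6/2 (0.0436%) or Hsf1-/- mice (0.00727%). An unadjusted p below 0.05 was found for 1, 1 and 0 of the 8 in that order, and DESeq2 called 0 in each. After HSP990 0 were called in wild type (1.85%), R6/2 (1.43%) or Hsf1-/- mice (0.218%), with an unadjusted p below 0.05 for 1, 1 and 0 and with 0 called by DESeq2. For the 7 genes other than Kcnj2, the 95% intervals of the log2 fold changes lay between -0.60 and 0.76.

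**Figure D5:**
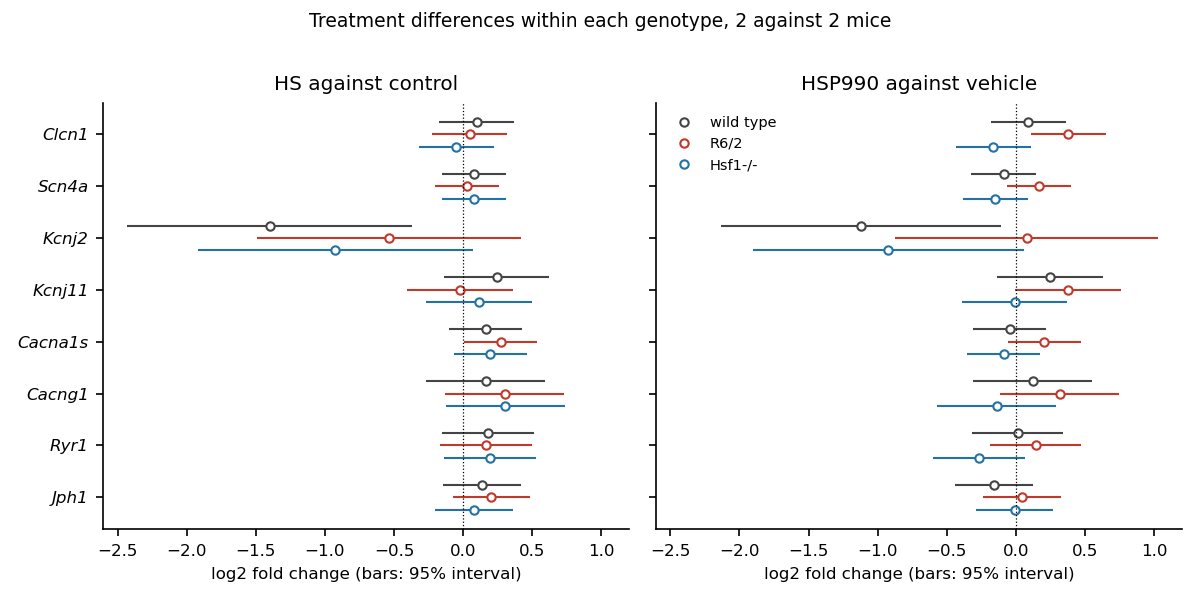
Log2 fold change of HS against control (left) and HSP990 against vehicle (right) with 95% intervals (x axis) for the 8 genes (y axis) in wild type (grey), R6/2 (red) and Hsf1-/- mice (blue), 2 against 2 mice, none called. The Kcnj2 intervals are the widest, and its wild type values lie at -1.40 and -1.12.

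Kcnj2, read from low counts, had the largest fitted log2 fold changes of the 8 after HS in each genotype and after HSP990 in wild type and Hsf1-/- mice, but not after HSP990 in R6/2 mice, and none of these was called. In wild type mice it was at 2.20 and 1.87 CPM in control against 0.746 and 0.790 after HS, and at 1.99 and 2.17 CPM with vehicle against 1.098 and 0.830 after HSP990. HS and control wild type mice did not overlap, nor did HSP990 and vehicle ones. With 2 against 2 mice, spread alone can give such separation, here and below, and the share of all genes with it is not reported here. In Hsf1-/- mice it was at 2.43 and 1.75 against 1.01 and 1.19 CPM for HS, and at 1.98 and 2.82 against 0.877 and 1.71 CPM for HSP990, also without overlap. In R6/2 mice it was at 1.54 and 2.00 against 1.79 and 0.632 CPM for HS, and at 1.92 and 0.862 against 1.55 and 1.40 CPM for HSP990, with overlap in both.

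Kcnj2 had log2 fold changes after HS of -1.40 (SE 0.49, unadjusted p = 0.011, adjusted p = 0.19) in wild type, -0.54 in R6/2 and -0.92 in Hsf1-/- mice by edgeR. After HSP990 they were -1.12 (SE 0.48, adjusted p = 0.32), 0.08 and -0.92. A mean over the 3 genotypes was added after these values had been seen. For HS it gave -0.95 (95% interval -1.53 to -0.38, adjusted p = 0.046), which made Kcnj2 the 1 gene of the 8 called, where 6.14% of all genes were. This call was lost when any 1 of 11 mice was left out and was kept only without the first R6/2 HS mouse (-1.27, adjusted p = 0.0098, against -1.02 to -0.77 and 0.056 to 0.13 for the other 11). It was also lost with the replicate number as a block (0.055) and with only these groups in the fit (0.069). DESeq2 called Kcnj2 (0.017) and Cacna1s, where it called 464 of all genes lower and 685 higher. For HSP990 the mean was -0.65 (adjusted p = 0.21), and 0 of the 8 were called by edgeR or DESeq2, 1 having an unadjusted p below 0.05, where 4.65% of all genes were called. Without the second R6/2 vehicle mouse 1 gene, Kcnj11, was called in that mean.

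Of the other genes, Clcn1 had the lowest unadjusted p after treatment in R6/2 mice. It was at 195 and 188 CPM with vehicle and 264 and 235 CPM after HSP990, with a log2 fold change of 0.38 (SE 0.13, unadjusted p = 0.0089, adjusted p = 0.23 by edgeR). The wild type value was 0.09 and the Hsf1-/- value -0.16. Cacna1s after HS was higher by 0.16, 0.27 and 0.20 on the log2 scale in wild type, R6/2 and Hsf1-/- mice, with an adjusted p of 0.6 to 0.75, none of them called.

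The response itself was compared between genotypes as an interaction. Of the 8 genes 0 were called by edgeR or DESeq2 and 0 had an unadjusted p below 0.05 for HS in R6/2 against wild type (0.0727% of all genes were called), HSP990 in R6/2 against wild type (0% of all genes), HS in Hsf1-/- against wild type (0.16%) and HSP990 in Hsf1-/- against wild type (0.422%). For Kcnj2 the response to HSP990 differed between R6/2 and wild type mice by 1.19 on the log2 scale, with an interval of -0.19 to 2.58 (adjusted p = 0.75). For Clcn1 the same difference was 0.29 (interval -0.09 to 0.68, adjusted p = 0.79).

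Ordered over the 12 groups with TMM, 7 of the 8 genes had their lowest mean in an R6/2 control or vehicle group, and Kcnj2 was lowest in wild type HS mice. The ratio of the highest to the lowest group mean was 1.38 for Scn4a, 1.61 for Clcn1, 1.90 for Jph1, 2.13 for Cacng1, 2.41 for Cacna1s, 2.50 for Kcnj11, 2.54 for Ryr1 and 3.12 for Kcnj2. Most neighbours in these orders overlapped between mice. All 11 pairs of neighbours did so for Scn4a and Cacng1, 10 for Clcn1 and Kcnj2, 9 for Kcnj11 and Ryr1, and 7 for Cacna1s and Jph1. For Ryr1 the step from wild type control to R6/2 HSP990 mice was 1 of the 2 without overlap, and for Cacna1s the step from wild type HSP990 to R6/2 HS mice was 1 of the 4.

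The genes whose pattern over the 12 group means was most like that of each of the 8 were taken by Pearson's r of log2(CPM + 0.5). They were Mybpc2 (r = 0.992) and Actn3 (0.989), proteins of the fast sarcomere, for Cacna1s, and Dkk3 (0.989) and the fast myosin heavy chain Myh4 (0.987) for Ryr1. For Jph1 they were Rab10 (0.982) and Ptprb (0.970), for Cacng1 Tufm (0.977) and Endog (0.976), and for Kcnj11 Top1mt (0.975) and Ache (0.955). Clcn1 was nearest to Twnk (0.965) and Ggnbp1 (0.963), and Scn4a to Camta2 (0.963) and Dennd4b (0.954). Kcnj2 was nearest to Zfp2 (0.928) and Sybu (0.917). Among the 8, Cacna1s and Ryr1 had the closest pair of patterns (0.964), followed by Ryr1 and Jph1 (0.952). For Kcnj2 and another of the 8, r ran only from -0.14 (Cacng1) to 0.15 (Scn4a). These values describe 12 points that share libraries and scaling, and the R6/2 groups stand apart from the rest in most of them.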

How the data were processed

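Poly(A) libraries, strand-specific and read from both ends, were aligned by the authors to mm9 using Bowtie, and the raw counts per gene were deposited with 1 column per mouse. The counting program, its annotation and its treatment of reads with several matches are not given in the sources used here. NCBI gene numbers were matched to symbols (18594 of 18669), and mm9 positions and exon lengths came from GENCODE vM1. Following the study's filter, a gene needed 2 or more counts in 10 or more libraries (13754 passed). edgeR 4.0.16 under R 4.3.3 with limma 3.58.1 gave TMM factors and a quasi-likelihood fit of 12 groups (12 residual degrees of freedom), in place of the study's DESeq2, for 16 planned and 3 added comparisons. p-values were adjusted after Benjamini-Hochberg over all genes, at a threshold of 0.05, and fold changes are log2. The fit was tested on simulated counts with known changes in a small part of the genes, up and down alike. That simulation held no shift in composition, so it could not test the choice of scaling. Alternatives were RLE and library size scaling, TMM without the 20 highest genes, other filters, DESeq2 1.42.0, only the groups compared, a replicate block and leaving out each mouse. Scaling to fibre markers, averages over genotypes and values within an experiment were added after seeing the data. All 8 genes were named, with up to 4 called genes of largest change per list, genes needed to read a member, and the 2 genes nearest in pattern (mean of at least 1 CPM). The members and lists were chosen with earlier results of these data known. Mice of a group are separate animals, whose counts differed by more than counting error (chi-square per degree of freedom 18.0 to 106). This value was 52.4 to 106 in R6/2, 22.7 to 31.5 in wild type and 18.0 to 75.1 in Hsf1-/- groups. The fit used 1 spread per gene for all groups, and how this affects the R6/2 standard errors was not tested. Some listed genes that this rule would name are not reported here by name.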

Additional observations from a re-analysis of the deposited data

How the results depend on the processing

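The count of 7 R6/2 calls over 4 treatments stayed at 7 lower calls under RLE, TMM without the 20 highest genes, other filters, DESeq2, only the groups compared, the block and leaving out any 1 mouse. Library size only called 6 of the 8 genes, 3 of them higher, where 69.1% of all genes were called higher and 3.78% lower. With library size only the log2 fold change changed sign for Clcn1 (0.18), Scn4a (0.30) and Jph1 (0.11) over 4 treatments, for Scn4a (0.31) and the uncalled Clcn1 (0.21), Jph1 (0.13) and Kcnj2 (0.34) in control mice, and for Clcn1 (0.073), Scn4a (0.24) and the uncalled Kcnj2 (0.10) in vehicle mice, where 1 gene was called. Scaled to the fast fibre markers, all 8 were called higher, as were 12812 of all genes, while 51 of all genes were called lower. The signs changed there for Clcn1 (1.34), Scn4a (1.47), Kcnj11 (0.89), Cacna1s (0.90), Cacng1 (1.12), Ryr1 (0.83) and Jph1 (1.28). Each scaling, TMM among them, moves all genes nearly together, and which scale is right was not tested.

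In control mice the count of R6/2 calls was 1 (Kcnj11) with only the groups compared, 1 to 3 without 1 mouse, and 4 with DESeq2 and with edgeR's default filter, each adding Jph1. The 2 calls in Hsf1-/- mice became 0 to 1 without 1 mouse, and in Hsf1-/- control mice 1 was called by DESeq2 and 2 with only the groups compared. For the HS mean over genotypes, the count of 1 became 2 with DESeq2, 0 with only the groups compared and 0 to 1 without 1 mouse, and for the HSP990 mean 0 became 0 to 1 without 1 mouse. The cause of these changes was not tested. All other counts for treatments and interactions stayed at 0.

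Mice of different groups shared only a replicate number: the correlation of their deviations between groups was -0.33 to 0.35 (median -0.02), above 0.1 in 10 of 66 pairs. With this number as a replicate block, 1 gene rather than 2 was called in Hsf1-/- mice and 0 rather than 1 in the HS mean, and no other count left its range. Depth limited Kcnj2 most, at 19 to 94 counts per library.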
